A study of Mus musculus with 60 samples.

Results

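H3R8C was compared with H3WT by the genomic regions called as H3K27me3 peaks in C3H 10T1/2 mouse mesenchymal progenitor cells (MPC), a cell line of embryonic mesenchymal origin. The comparison used the 6 anti-H3K27me3 CUT&RUN peak lists of these genotypes, of 60 samples in the series, 30 of which have a peak list. In CUT&RUN an antibody tethers a nuclease to chromatin, and the DNA it releases is sequenced. Both cell populations carried a lentiviral human H3C2 cDNA, which encodes histone H3.1 with C-terminal HA and FLAG tags, behind an EF1 promoter and a puromycin resistance gene. In H3R8C the codon for arginine at position 8 of that transgene was changed to cysteine, while in H3WT the transgene was unchanged. The endogenous H3 genes remained in both genotypes, so the mutant histone was added to wild-type H3 rather than replacing it.

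Replicates 1 and 2 of H3WT held identical values in every line, as did replicates 1 and 2 of H3R8C, so each pair was counted once. This left 2 libraries per genotype: the first library (replicates 1 and 2) and the second library (replicate 3). All values are given in that order. The study describes its CUT&RUN replicates as independent biological ones. Since the lists of a pair were identical, p-values rest on the spread between 2 lists per genotype. The H3WT libraries held 22083 and 20543 peaks, and the H3R8C libraries 22535 and 20077. Peaks covered 101.1 ± 3.54 Mb in H3WT and 102.7 ± 8.201 Mb in H3R8C (SD, n = 2 libraries each). The difference of 1.62 Mb had an exact permutation p of 1 (two-sided, the smallest p that 2 against 2 can give is 0.333), and it turned negative in 3 of the alternative settings given in the closing section.

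H3K27me3 is the trimethylation of lysine 27 of histone H3. Polycomb repressive complex 2 (PRC2) deposits it, mainly over CpG-rich promoters of developmental regulators and over broad domains around them, where it is associated with transcriptional silencing. In progenitor cells the mark covers genes of other lineages, such as neural transcription factors, while genes in use carry little of it. Arginine 8 lies in the H3 N-terminal tail next to lysine 9.

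Peaks of the 4 libraries that overlapped were merged into 27098 regions. Of these, 10167 had a peak in all 4 libraries, 3549 in 3, 4900 in 2 and 8482 in 1. The consensus of 16557 regions holds those with a peak in both libraries of a genotype, whichever it was. Signal is the total signal that the peak caller gave to the peaks in a region, divided by the library's median over the 10167 shared regions, so that 1 is the typical shared region. The lowest peak a library listed had a scaled signal of 0.232 and 0.242 in H3WT and 0.200 and 0.213 in H3R8C. A region listed at 0 therefore had no called peak, and its true signal is not known. That limit holds for a single peak, so in a long region uncalled signal at several places can sum to more. The lists hold no read counts, so the depth behind a region cannot be had from them. The study states a total of reads for each library, different for replicates 1 and 2, and these totals were not used here.

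Sequences are shown for the loci to which the results return, to let the CpG content of the promoters be compared. The promoters of Dmrt2, Neurog1, Taar3 and Mark1 lie under regions that were lower in H3R8C, and those of Pcdh10 and Sox6 at loci that were higher. Each run is the 250 bases before the RefSeq start on the gene's own strand (GRCm38.p6), with CpG dinucleotides in capitals.
Dmrt2 (chr19:25672161-25672410, plus strand): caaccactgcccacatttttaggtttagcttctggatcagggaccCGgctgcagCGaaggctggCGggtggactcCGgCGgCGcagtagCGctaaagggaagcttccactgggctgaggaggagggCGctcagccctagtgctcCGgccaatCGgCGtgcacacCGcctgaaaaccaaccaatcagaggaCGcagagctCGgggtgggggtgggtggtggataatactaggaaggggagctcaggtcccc
Neurog1 (chr13:56252181-56252430, minus strand): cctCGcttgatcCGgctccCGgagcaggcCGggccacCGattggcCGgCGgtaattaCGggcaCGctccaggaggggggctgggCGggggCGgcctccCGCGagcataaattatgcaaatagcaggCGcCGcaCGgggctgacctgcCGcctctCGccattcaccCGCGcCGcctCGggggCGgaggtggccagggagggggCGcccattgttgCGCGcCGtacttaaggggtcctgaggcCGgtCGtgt
Taar3 (chr10:23949308-23949557, plus strand): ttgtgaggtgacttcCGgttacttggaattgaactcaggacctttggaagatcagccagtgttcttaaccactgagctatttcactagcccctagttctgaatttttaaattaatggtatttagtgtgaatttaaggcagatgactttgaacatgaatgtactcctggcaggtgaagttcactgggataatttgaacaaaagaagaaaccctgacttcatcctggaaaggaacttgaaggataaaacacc
Mark1 (chr1:184999550-184999799, minus strand): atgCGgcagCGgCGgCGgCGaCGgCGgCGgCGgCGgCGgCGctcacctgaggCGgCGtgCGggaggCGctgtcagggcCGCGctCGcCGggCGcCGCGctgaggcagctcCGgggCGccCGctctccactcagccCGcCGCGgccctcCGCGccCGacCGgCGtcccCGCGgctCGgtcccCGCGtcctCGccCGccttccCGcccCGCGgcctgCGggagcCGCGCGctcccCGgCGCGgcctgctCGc
Pcdh10 (chr3:45378148-45378397, plus strand): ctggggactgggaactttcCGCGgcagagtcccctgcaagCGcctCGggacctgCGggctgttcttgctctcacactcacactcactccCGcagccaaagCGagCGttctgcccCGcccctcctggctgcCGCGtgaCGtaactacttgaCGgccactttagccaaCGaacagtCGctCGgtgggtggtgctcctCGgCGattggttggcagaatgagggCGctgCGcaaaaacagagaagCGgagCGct
Sox6 (chr7:116038745-116038994, minus strand): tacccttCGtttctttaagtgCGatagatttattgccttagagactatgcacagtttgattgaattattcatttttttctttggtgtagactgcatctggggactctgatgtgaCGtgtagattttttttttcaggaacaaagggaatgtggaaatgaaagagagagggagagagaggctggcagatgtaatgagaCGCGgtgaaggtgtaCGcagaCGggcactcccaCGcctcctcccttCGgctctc

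These promoters cover most of the range of CpG content. Mark1 had 52 CpG in 250 bases, a count that 0.0545% of 16522 protein-coding promoters reach, while Taar3 had 1, which 93.0% reach. Neurog1 had 29, Pcdh10 22, Dmrt2 14 and Sox6 9, against a median of 10 over all promoters. Among 2137 genes tested that have a promoter sequence the median was 9, among 33 that were lower in H3R8C 8, and among 64 that were higher 9.5. Of the promoters shown, those at lower loci thus ran from 1 to 52 CpG, and those at higher loci had 9 and 22.

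For 2 loci without a gene start the 300 bases at the centre of the highest signal are given (mm10, plus strand, CpG in capitals). The first lies 84.2 kb from Vgll3 and was lower in H3R8C, with the maximum placed in H3WT. The second lies in an interval of chromosome 1 without a protein-coding gene and was higher, with the maximum placed in H3R8C.
Vgll3 side (chr16:65717126-65717425): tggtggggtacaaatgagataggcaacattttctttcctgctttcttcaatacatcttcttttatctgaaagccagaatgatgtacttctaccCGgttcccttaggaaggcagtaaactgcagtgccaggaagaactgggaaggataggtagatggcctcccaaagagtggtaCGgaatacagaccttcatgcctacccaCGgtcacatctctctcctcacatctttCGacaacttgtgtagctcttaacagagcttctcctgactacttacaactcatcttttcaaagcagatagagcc
Chromosome 1 interval (chr1:56211026-56211325): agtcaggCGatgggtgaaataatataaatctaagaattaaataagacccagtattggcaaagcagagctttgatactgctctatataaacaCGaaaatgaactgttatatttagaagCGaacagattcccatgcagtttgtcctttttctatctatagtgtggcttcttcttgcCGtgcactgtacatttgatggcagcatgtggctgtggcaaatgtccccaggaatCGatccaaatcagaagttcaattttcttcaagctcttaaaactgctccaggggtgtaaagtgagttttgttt

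The first question was how many regions differ, and which. A region was lost if both H3WT libraries had a peak there and neither H3R8C library did, and gained in the opposite case. H3R8C lost 1370 of 16557 consensus regions (8.27%) and gained 1471 (8.88%), so the numbers in the 2 directions were close. Most of these regions were weak. Lost regions had a median scaled signal of 0.382 in H3WT and gained regions 0.329 in H3R8C, little above the lowest listed peak. A mean signal of 1 or more in the genotype with the higher signal was seen in 60 lost regions (4.38%) and 74 gained regions (5.03%), against 36.5% of the consensus. Lost and gained regions were also less often at a gene start (within 1 kb), at 5.26% and 9.04% against 14.5% of the consensus.

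A limma test on log2(scaled signal + 0.25) with Benjamini-Hochberg adjustment found 1493 regions lower in H3R8C (9.02%) and 1546 higher (9.34%). Of these, 1298 were lost and 1396 gained. A lost or gained region entered the consensus only through the genotype in which it had peaks, and it has no spread in the other, so its call restates how it was chosen and adds no support. Such regions are therefore given below by their values. Counts of lower or higher regions around a locus include them and so restate that choice in part. These counts are a description, beside 9.02% and 9.34% of the consensus. Of the regions with a peak in all 4 libraries, 179 were among the lower and 139 among the higher calls. The counts were 661 and 732 lower when the first or the second H3R8C library was left out, and 3244 and 4123 when the first or the second H3WT library was, and the higher counts were 3300, 3662, 999 and 1058 in the same order. Over all 27098 merged regions no region passed, with 2253 lower and 2316 higher at an unadjusted p under 0.05.

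Regions with a peak in all 4 libraries can be compared without values listed at 0. Signal outside the called peaks of such a region is still not listed. A fold that rests on a value near the lowest listed peak therefore depends on the calling threshold. The same test fitted on these 10167 regions alone found 87 lower in H3R8C (0.856%) and 53 higher (0.521%). At an unadjusted p under 0.05 there were 881 and 866. The regions called were long and strong, with a median length of 15.4 kb for lower and 16.2 kb for higher regions against 7.50 kb for all shared regions. Median signal went from 3.06 in H3WT to 0.783 in H3R8C over the 87, and from 1.23 to 3.45 over the 53. Gene starts lay under 21 of the lower (24.1%) and 14 of the higher regions (26.4%), against 18.9% of all shared regions. Leaving out a library leaves 1 sample in its genotype, which is then assumed to vary like the pair of the other genotype. The counts were 334 lower and 396 higher without the first H3WT library and 451 and 497 without the second, with the 87 and the 53 among them, with the spread taken from the H3R8C pair alone, so this is no sign of stability. Without the first H3R8C library 4 lower and 0 higher regions were called in all, and without the second 7 and 0, with every one of the 140 keeping its direction. Each of the 140 was chosen by its difference in the same libraries, so a kept direction adds no support. In 1 fit of 8 libraries that adds H3R2C and H3R26C, 50 of the 87 and 32 of the 53 passed against H3WT. The adjusted p of that fit is given below for the described regions that did not.

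By log2 ratio these regions differed in length more than in height. The length under peaks was shorter in both H3R8C libraries than in both H3WT libraries at 87 of the 87 lower regions and longer at 53 of the 53 higher ones, against 16% and 22.6% of all shared regions. The maximum signal was lower in both at 78 and higher in both at 44, against 18.6% and 16.3%. The median log2 ratio over the lower regions was -1.28 for length and -0.66 for the maximum. Over the higher regions it was 1.05 for length and 0.55 for the maximum. Since total signal, which chose these regions, contains both quantities, these counts are a description. Each shared region also keeps a listed peak in every library, which may limit a fall in height more than a fall in length. Over Tmem273 (chr14:32743001-32800800) the H3R8C maximum was 0.500 and 0.615 with 11 and 2.45 kb under peaks. Whether the 2 ratios are on equal terms was not tested. With the maximum signal in place of the total no shared region passed in either direction, while 86 and 52 kept their direction and 584 and 412 shared regions stood at an unadjusted p under 0.05.

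**Figure D1:**
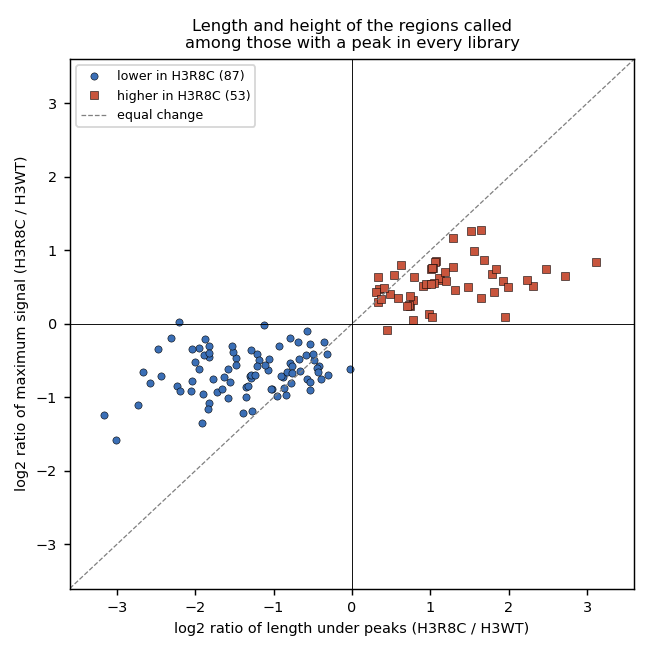
Log2 ratio of H3R8C to H3WT means for the length under peaks (x axis) and for the scaled maximum signal (y axis), for the 87 regions called lower (blue circles) and the 53 called higher (red squares) among regions with a peak in every library. Most points lie nearer to the x axis than the dashed line of equal change, with median log2 ratios of -1.28 and 1.05 for length and -0.66 and 0.55 for height.

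Regions called in the same direction lay near each other. Another region of the same direction among the calls was found within 100 kb of 27 of the 87 lower regions (31.0%), against 1.62% of shared regions not called lower. For the higher regions this held for 13 of 53 (24.5%), against 1.48%. Neighbouring regions can be parts of 1 domain, so they are not independent.

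The largest loss in a shared region was over Tmem273, a transmembrane protein gene (chr14:32743001-32800800). Its signal was 13.5 and 12.5 in H3WT and 1.32 and 0.245 in H3R8C, a 16.6-fold lower mean (log2 -3.91 ± 0.60 SE, limma adjusted p = 0.00848). Peaks covered 51.8 and 56.4 kb of it in H3WT and 11 and 2.45 kb in H3R8C. Within 250 kb of it 14 of 22 consensus regions were lower and 11 were lost. Summed signal went from 53.6 and 56.1 to 25.0 and 24.8. The decrease had an edge: the region over Prrxl1 (chr14:32587051-32613400), a homeobox gene of sensory neurons, had 10.8 and 10.998 in H3WT and 12.3 and 11.6 in H3R8C (adjusted p = 0.593).

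The Dmrt locus on chromosome 19 holds Dmrt1, Dmrt3 and Dmrt2, which encode DM domain transcription factors with roles in gonad, spinal cord and somite development. Dmrt2 (chr19:25656351-25692600), whose promoter is shown above, had 11.8 and 11.6 in H3WT and 1.80 and 2.56 in H3R8C (5.36-fold lower, log2 -2.31 ± 0.18 SE, adjusted p = 0.00219). Dmrt3 (chr19:25595201-25626650) had 18.6 and 16.3 against 9.45 and 9.30 (log2 -0.88, adjusted p = 0.0169, and 0.0755 in the fit of 8 libraries). At Dmrt3 the covered length hardly moved, from 31.3 kb in both H3WT libraries to 30.2 and 31.2 kb, so there the decrease was in height, with a maximum of 3.50 and 3.08 against 2.00 and 2.31. The start of Dmrt1 (chr19:25496501-25515450) had 5.66 and 5.21 against 2.88 and 3.22, and its gene body (chr19:25549451-25581000) 9.65 and 8.32 against 3.17 and 2.80. All 15 consensus regions within 250 kb of Dmrt2 were below H3WT, with 11 past the threshold and 6 lost. Summed signal went from 60.0 and 55.1 to 20.0 and 20.3.

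Dscaml1, which encodes a neuronal cell adhesion molecule, had the longest run of lost regions (chromosome 9). The 3 lost regions among the 5 longest lie in its body: chr9:45526701-45551600 with 3.97 and 4.36 in H3WT, chr9:45507451-45523700 with 3.10 and 2.91, and chr9:45591301-45606100 with 2.61 and 2.64, all listed at 0 in both H3R8C libraries. All 33 consensus regions within 250 kb of the first of these were below H3WT, 24 lower and 19 lost. Their summed signal was 46.5 and 55.4 in H3WT and 6.98 and 7.23 in H3R8C. Among regions with a peak in every library, chr9:45615401-45627600 in the same gene had 2.16 and 2.53 against 0.255 and 0.216 (log2 -2.42, limma adjusted p = 0.00848). Its mean was 9.96-fold lower, but both H3R8C values were near the lowest listed peak, with 1.7 and 1.8 kb under peaks. Upstream of it the start of Il10ra, a subunit of the interleukin 10 receptor, had 2.97 and 3.40 against 0.677 and 0.362 (log2 -2.19, adjusted p = 0.0105).

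Pax1, a regulator of sclerotome and thymus development, lost its whole region (chr2:147349851-147368750), with 5.41 and 4.86 in H3WT and 0 in both H3R8C libraries. Of 18 consensus regions around it 10 were lower, all 10 of them lost. Sox1, a marker of neural progenitors, kept its peak at a lower level: chr8:12378851-12416300 had 19.97 and 20.47 against 11.98 and 11.96, a 1.69-fold difference (log2 -0.74, adjusted p = 0.0252). Neurog1, a proneural bHLH factor whose CpG-rich promoter is shown above, had 17.14 and 16.97 against 11.02 and 10.96 (chr13:56231151-56266550, log2 -0.62, adjusted p = 0.0393). Neither passed in the fit of 8 libraries, where limma gave an adjusted p of 0.158 for Sox1 and 0.257 for Neurog1. Neurog1 lies on chromosome 13, whose share of all signal was also lower.

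Trace amine-associated receptors, a family of G protein-coupled receptors mostly used by olfactory neurons, form a cluster on chromosome 10 that was lower over several members. The region over Taar3 and Taar4 (chr10:23944801-23961050) had 3.70 and 3.31 in H3WT and 0.666 and 0.772 in H3R8C (log2 -1.96, adjusted p = 0.00652). Taar8b, Taar8c and Taar9 share a region with 7.47 and 5.73 against 3.85 and 3.14 (log2 -0.87, adjusted p = 0.0481, and 0.245 in the fit of 8 libraries). The region over Taar2 (chr10:23936701-23939650) was lost, with 0.551 and 0.506 in H3WT. Around Taar3, 10 of 18 consensus regions were lower, 6 were lost and none was higher. The Taar3 promoter, with 1 CpG, is the poorest in CpG of those shown.

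Other regions among the 8 most lowered lay in gene bodies or between genes. Grik4, a kainate receptor subunit, had 3.45 and 3.95 against 0.288 and 0.740 in its body (chr9:42759351-42780100, log2 -2.43, adjusted p = 0.0116). Tox2, an HMG-box factor, had 4.26 and 3.64 against 0.587 and 0.474 (chr2:163210601-163233300, log2 -2.43, adjusted p = 0.00363). Of 13 regions around it 9 were lower and 7 were lost. Tmem108 had 3.18 and 3.25 against 0.281 and 0.566 (chr9:103542701-103559800, log2 -2.40, adjusted p = 0.00848, and 0.0605 in the fit of 8 libraries). The region 84.2 kb from Vgll3, a transcriptional cofactor (chr16:65709101-65731050, centre shown above), had 5.95 and 4.31 against 0.275 and 0.342 (log2 -3.25, adjusted p = 0.00219). Unlike the loci above, its neighbourhood was mixed, with 4 regions lower and 2 higher of 17.

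Some gene starts under the 87 regions were singled out after their values were seen. Tenm3, a teneurin that guides neuronal connections, had 2.17 and 2.30 against 0.231 and 0.395. Mark1, a microtubule affinity-regulating kinase with the CpG-richest promoter shown, had 1.517 and 1.498 against 0.211 and 0.288. Ret, a receptor tyrosine kinase of enteric neurons and kidney, had 1.70 and 1.94 against 0.380 and 0.477. Pdx1, the pancreatic homeobox factor, had 6.46 and 6.98 against 4.08 and 3.64 (adjusted p = 0.0311, and 0.0667 in the fit of 8 libraries).

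Signal rose in H3R8C over a part of chromosome 1 without protein-coding genes. Of the 8 most raised shared regions 3 lie there, with Hsfy2 at a distance of 379 to 449 kb as the nearest gene start. The region chr1:56205201-56230700, whose centre is shown above, had 0.409 and 0.254 in H3WT and 4.121 and 4.601 in H3R8C (13.2-fold higher, log2 2.998 ± 0.19 SE, adjusted p = 0.00282). The regions chr1:56174301-56188350 and chr1:56235201-56258600 had 0.279 and 0.440 against 2.98 and 3.23, and 0.832 and 1.44 against 4.80 and 5.39 (adjusted p = 0.007 and 0.00848). The peaks of chr1:56205201-56230700 were 3.30 and 1.80 kb long in H3WT and 21.1 and 22.9 kb in H3R8C. Within 250 kb 18 of 26 consensus regions were higher, 14 of them gained, and 3 were lower. A broad region on one side (chr1:55933901-56030300) already had 14.9 and 13.2 in H3WT and rose to 24.6 and 23.9 (log2 0.78, adjusted p = 0.0284, and 0.329 in the fit of 8 libraries). Its maximum signal did not rise, and by that measure its log2 change was -0.08.

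Sox6, a transcription factor of cartilage and neuronal development, gained signal in several regions of its body and at its start. The region chr7:115875901-115934800 was listed at 0 in both H3WT libraries and had 10.4 and 15.2 in H3R8C, with 50.1 and 58.9 kb under peaks. Another 2 of the 5 longest gained regions lie in the same gene, with 4.44 and 6.21 (chr7:115947951-115972800) and 4.55 and 5.40 (chr7:116003851-116022600). Of 17 consensus regions within 250 kb 16 were higher and 15 gained, and summed signal went from 0 and 0.599 to 40.0 and 54.6. The second H3R8C library exceeded the first at each of the 3 regions.

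Ptprd, a receptor protein tyrosine phosphatase of synapses, gained signal far inside its body on chromosome 4. The region chr4:76774751-76805350 had 0.253 and 0 in H3WT and 10.0 and 8.75 in H3R8C, and chr4:76704051-76728200 had 0 and 0 against 6.45 and 5.17. Of 13 consensus regions around the first 12 were gained. A further long gained region (chr14:114024501-114055500) lay 710 kb from the nearest gene start and had 6.07 and 4.14 in H3R8C.

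A region beside the Hoxc cluster, the homeobox genes that pattern the posterior body, rose 3.32-fold. It lies 62.3 kb from Calcoco1 (chr15:102784451-102830950) and had 4.61 and 3.65 in H3WT and 13.8 and 13.6 in H3R8C (log2 1.68 ± 0.13 SE, adjusted p = 0.00289). The next region (chr15:102850951-103127700) is a single domain over Hoxc13 to Hoxc4, with 155 and 153 against 202 and 171 (adjusted p = 0.700). The second H3R8C library was nearer to H3WT there than the first.

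Higher shared regions at gene starts were smaller. Pcdh10, a protocadherin of neuronal adhesion with its promoter shown above, had 0.240 and 0.510 in H3WT and 2.30 and 2.36 in H3R8C (chr3:45370701-45383050, 6.20-fold, log2 2.08, adjusted p = 0.0196). It was the only consensus region within 250 kb of itself. Carmil3, a regulator of actin capping, had 0.521 and 0.486 against 2.42 and 2.30 (chr14:55483651-55496850, log2 1.79, adjusted p = 0.014). Olfm1, a secreted neuronal glycoprotein, had 0.275 and 0.673 against 2.31 and 2.65 in its body (chr2:28205651-28218500, adjusted p = 0.0284, and 0.143 in the fit of 8 libraries). The region 110 kb from P2ry1, a purinergic receptor, had 0.244 and 0.300 against 2.78 and 2.22 (chr3:61112801-61128950, adjusted p = 0.00848). Of 14 regions around it 13 were higher and 10 were gained. The region 48.3 kb from Mfap3l (chr8:60563301-60584500) had 0.876 and 0.286 against 3.35 and 2.78 (adjusted p = 0.0311), and a broad region in the body of Arfgef3 (chr10:18654001-18705250) 8.26 and 6.74 against 14.0 and 12.1 (log2 0.78, adjusted p = 0.0393, and 0.066 in the fit of 8 libraries). The start of Tfap2b, a neural crest and kidney factor, had 2.33 and 2.10 against 4.36 and 4.12 (log2 0.87, adjusted p = 0.0309, and 0.0738 in the fit of 8 libraries). Tfap2b was singled out after its values were seen.

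**Figure D2:**
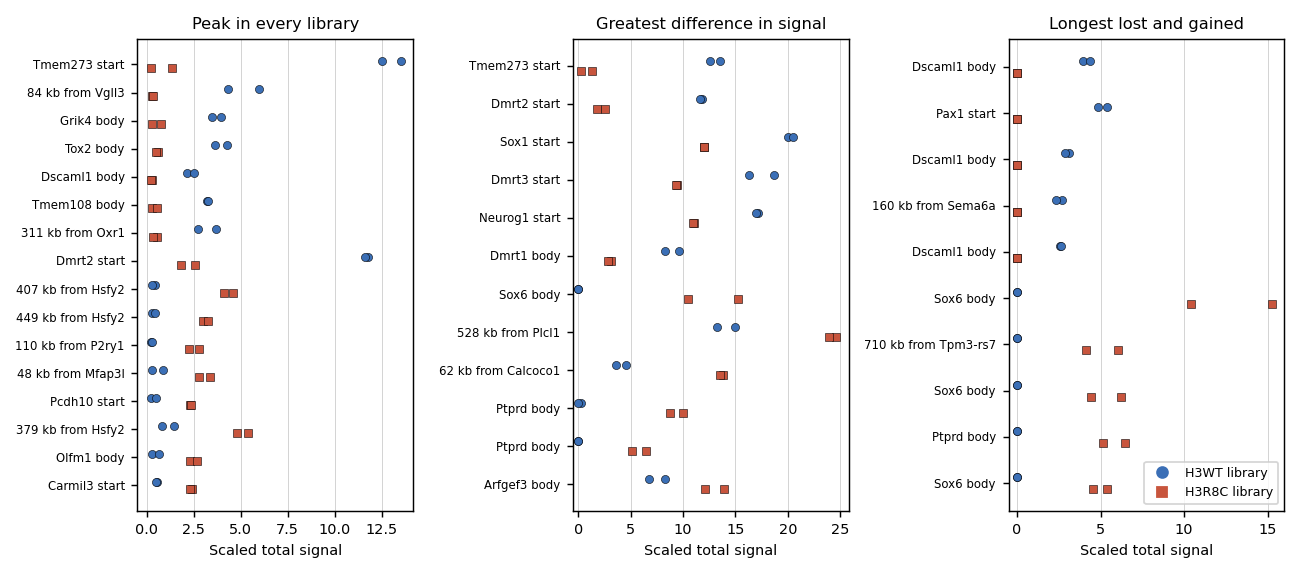
Scaled total signal (x axis, linear) of each H3WT library (blue circles) and H3R8C library (red squares) at the regions named by rule, labelled by gene start, gene body or distance to the nearest gene start. Left, the 8 most lowered and 8 most raised regions with a peak in every library; centre, the 6 lower and 6 higher regions with the greatest difference in signal; right, the 5 longest lost and 5 longest gained regions. The libraries of H3WT and H3R8C do not overlap in any row.

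**Figure D3:**
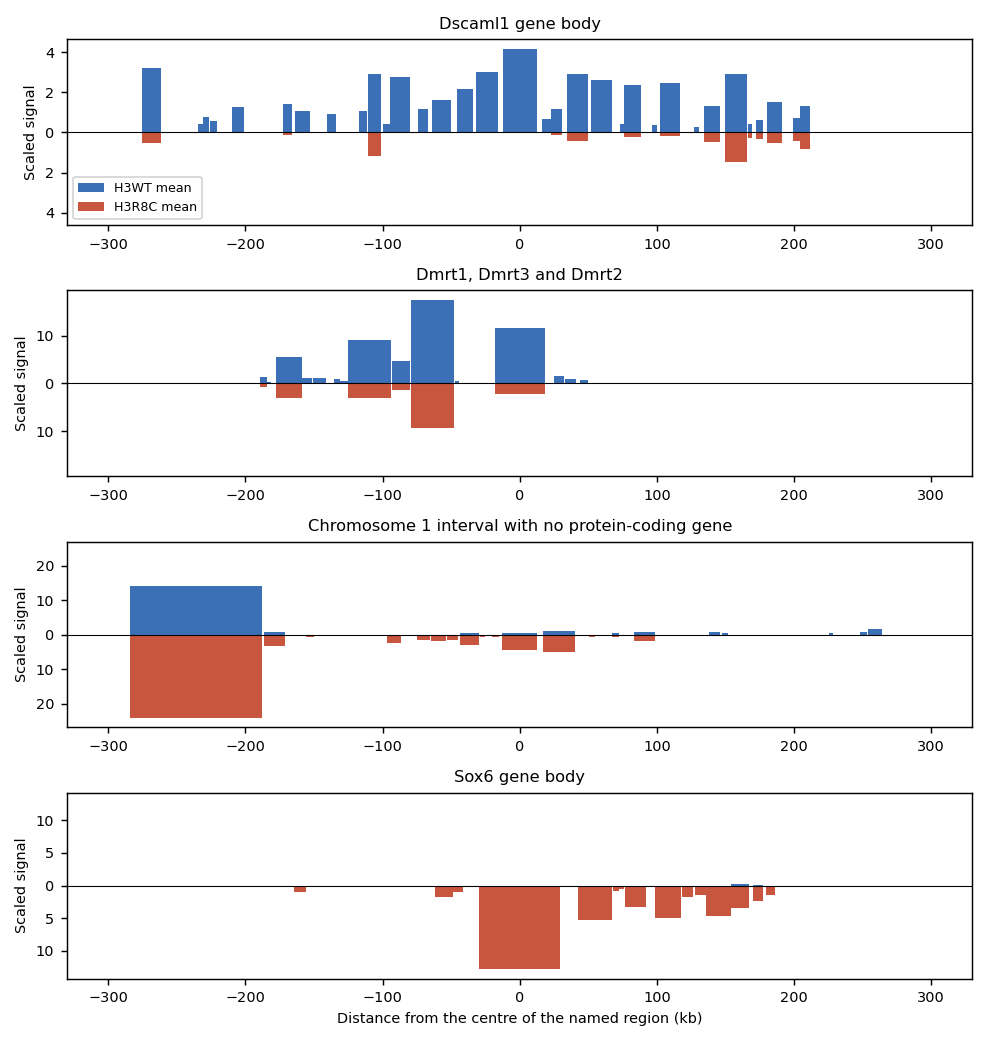
Mean scaled signal of H3WT (blue, upward) and H3R8C (red, downward) for the consensus regions within 250 kb of 4 named regions, by distance from the centre of the named region in kb, each bar as wide as its region. All 33 regions at Dscaml1 and all 15 at the Dmrt genes are smaller in H3R8C. Of 26 regions in the chromosome 1 interval 18 are called higher and 14 are gained, and of 17 at Sox6 16 and 15.

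The regions called were close to the rest in CpG ratio and repeats. The median ratio of observed to expected CpG was 0.201 over the 87 lower regions and 0.193 over the 53 higher ones, against 0.187 over all shared regions. Repeats covered a median of 19.4% and 20.6%, against 21.7%. In GC content the lower regions were above all shared regions and the higher ones below, with medians of 44.4% and 40.9% against 43.4%. Anti-HA peaks, which mark the tagged histone, overlapped 25.3% and 20.7% of the 87 lower regions in the H3WT libraries and 13.8% and 19.5% in the H3R8C libraries. Over the 53 higher regions these shares were 16.98%, 13.2%, 16.98% and 11.3%, and over all shared regions 17.4%, 19.8%, 17.3% and 14.6%. Of the regions named above with a peak in every library, those near Oxr1 and near Calcoco1 had an anti-HA peak in all 4 libraries.

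By gene, peak signal was spread evenly over each peak and summed within 2.5 kb of each start, then scaled by the median over genes with signal in every library. Of 21938 protein-coding genes 3637 had signal in a library, 2853 had it in both libraries of a genotype and were tested, and 2120 had it in every library. The limma test called 49 genes lower (1.72%) and 78 higher (2.73%), of which 41 and 73 were listed at 0 in both libraries of the other genotype. The smallest adjusted p was 0.0494, just under the threshold, so these calls are weak. A gene at 0 in both libraries of a genotype was tested only because of its signal in the other, so its call restates that choice and is given as a description. Among the 2120 genes with signal in every library none passed, the smallest adjusted p being 0.0711, with 260 genes at an unadjusted p under 0.05. The groups did not overlap for 625 genes with lower signal (21.9%) and 765 with higher signal (26.8%), and the median log2 change over all genes tested was 0.04. Without the first or the second H3R8C library 8 and 11 genes were lower and 386 and 313 higher, and without the first or the second H3WT library 240 and 220 were lower and 23 and 33 higher.

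The lower starts were led by Pax1, with 1.73 and 1.39 in H3WT and 0 in both H3R8C libraries. Kcna1, a voltage-gated potassium channel, had 1.25 and 1.29 in H3WT, Mmel1, a membrane metalloendopeptidase, 1.102 and 1.435, and Prdm16, a regulator of brown fat, 0.659 and 1.06. Nrn1, a neuritin of neurite growth, had 0.923 and 0.749, Myl3, a cardiac myosin light chain, 0.771 and 0.828, Igsf9b, an inhibitory synapse adhesion molecule, 0.956 and 0.659, and Iqgap2, a scaffold protein, 0.843 and 0.682. Each of these was listed at 0 in both H3R8C libraries, as were Gm9925, BC049352 and Rhox7a. Tenm3 kept 0.0268 and 0.182 in H3R8C, against 1.41 and 1.09.

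The higher starts were led by Dach1, a retinal and limb transcription cofactor, which was listed at 0 in H3WT and had 1.37 and 1.37 in H3R8C. The other 11 were also listed at 0 in H3WT. Lrfn5 had 1.33 and 1.23 in H3R8C, Slitrk5 1.14 and 1.34, Pcdh17 1.32 and 1.19, Pcdh11x 1.24 and 0.962, Tenm1 1.22 and 0.950, Ptprd 1.26 and 0.875, and Adgrb3 1.05 and 1.02. Nova1, a neuronal splicing factor, had 1.36 and 1.15, and Sncaip, a synuclein-binding protein, 1.01 and 1.03. Rsrc1 and Shox2, a limb homeobox gene, share the same peak and have 1.11 and 1.08 each, so they are 1 observation.

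**Figure D4:**
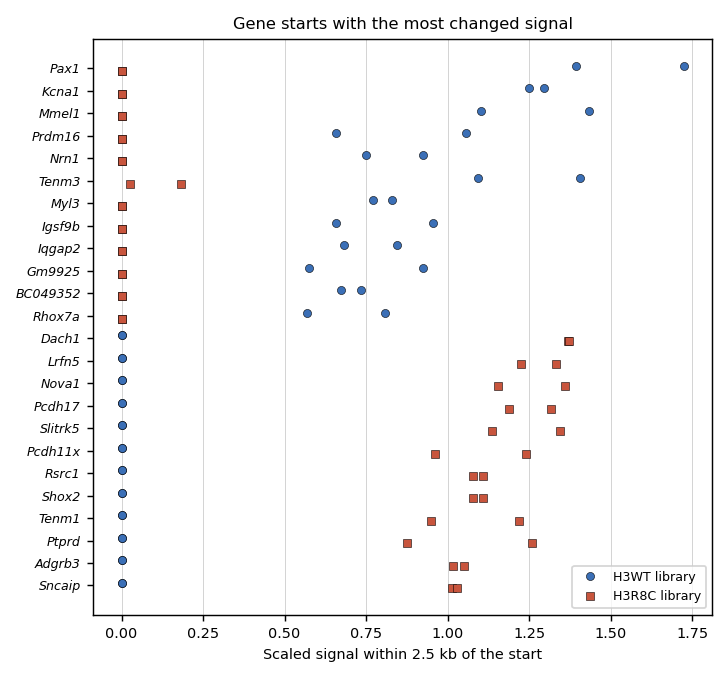
Scaled signal within 2.5 kb of the start (x axis, linear) of the 12 lower and 12 higher genes with the greatest log2 change, for each H3WT library (blue circles) and H3R8C library (red squares). All but Tenm3 are listed at 0 in both libraries of the genotype with the lower signal.

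Among homeobox genes outside the Hox clusters, 82 of 115 were tested, 2 were lower and 2 higher. Over all genes tested 1.72% were called lower and 2.73% higher. Irx4, a heart ventricle factor, had 1.92 and 1.81 in H3WT and 0.869 and 0.807 in H3R8C (2.23-fold lower, log2 -0.96), and Emx2, a forebrain and urogenital factor, 0.507 and 0.470 against 0. Pou3f4, an inner ear and brain factor, was listed at 0 in H3WT and had 0.636 and 0.849 in H3R8C, with Shox2 the other higher gene. The median log2 change over the list was -0.01, beside 0.04 over all genes tested. The Hox clusters themselves had 0 calls: all 10 genes of Hoxb, 9 of Hoxc and 9 of Hoxd were tested, and 4 of 11 of Hoxa. Their median log2 changes were 0.00, 0.04, -0.04 and 0.70, and genes under 1 long peak share its value.

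Other developmental factor families had at most 1 call, beside 1.72% lower and 2.73% higher of all genes tested. Pax1 was 1 of 6 Pax genes tested. Of 10 Sox genes Sox6 was higher, with 0 in H3WT and 0.820 and 1.17 in H3R8C. Atoh1, a proneural factor of cerebellum and inner ear, was higher among 21 neural bHLH genes (0 against 0.800 and 0.498), and Tbr1, a cortical factor, among 9 T-box genes (0 against 0.289 and 0.347). None of 15 forkhead genes was called.

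Of the signalling genes tested few were called, beside 1.72% lower and 2.73% higher of all genes tested. Frzb, a secreted Wnt antagonist of cartilage, was the call among 26 Wnt pathway genes (0 against 0.831 and 0.836). Fgf13 (0 against 0.689 and 0.601) and Fgf23, a phosphate-regulating hormone (0 against 0.323 and 0.359), were the 2 among 12 Fgf, Bmp and Gdf genes. None of 11 hedgehog and Notch genes and none of 13 chemokine and interleukin genes was called. Values that did not overlap between the genotypes were lower for 5 and higher for 8 of the Wnt pathway genes, 4 and 2 of the Fgf, Bmp and Gdf genes, 1 and 7 of the hedgehog and Notch genes, and 6 and 0 of the chemokines and interleukins, beside 21.9% and 26.8% of all genes tested.

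In channels and adhesion genes the calls went both ways. Beside the counts given here, 1.72% of all genes tested were called lower and 2.73% higher. Of the called genes named here all but Zfp105 were listed at 0 in 1 genotype. Of 38 voltage-gated channel genes Kcna1 and Cacna1f (0.471 and 0.509 against 0) were lower, and Cacng7 (0 against 0.307 and 0.333) was among those higher. Of 19 glutamate, GABA and glycine receptor genes Gabrp (0.309 and 0.350 against 0) was lower, and Glra4 (0 against 0.269 and 0.293) was among those higher. Pcdh17 and Pcdh11x were the 2 calls among 8 protocadherin and plexin genes outside the clusters, and none of the 56 clustered protocadherins had signal to test. Of 28 zinc finger genes named Zfp, Zfp105 (0.384 and 0.368 against 1.302 and 1.279) and Zfp647 (0 against 0.543 and 0.357) were higher. Of 85 olfactory receptor genes tested, Olfr1358 (0.352 and 0.391 against 0) and Olfr1418 (0.338 and 0.266 against 0) were lower. Col27a1 (0 against 0.364 and 0.285) was the call among 8 collagens. No call was made among 70 solute carrier, 22 imprinted, 19 keratin, 12 vomeronasal receptor, 9 myogenic, 3 cadherin, 3 Polycomb subunit and 1 serpin genes tested.

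In lists without a call, up to 3 genes with the lowest unadjusted p are given, and none of them passed. Hoxd13, the most posterior gene of its cluster, had 2.05 and 2.29 in H3WT and 1.40 and 1.39 in H3R8C (adjusted p = 0.0655), while Hoxd12 and Hoxd11, which have the same values, had 2.15 and 2.29 against 2.06 and 2.17. Hoxa9 had 0 and 0.704 against 1.05 and 1.17, Hoxa10 0.0372 and 0.634 against 0.512 and 1.86, and Hoxa13 2.19 and 2.02 against 2.66 and 1.86. Hoxb1 had 2.41 and 3.56 against 4.363 and 3.603, Hoxb13 4.75 and 3.82 against 4.90 and 3.73, and Hoxb2 4.39 and 3.56 against 4.363 and 3.603. Hoxc10, Hoxc11 and Hoxc12 had the same values, 4.28 and 3.59 against 4.18 and 3.89. Of these genes Hoxd13 was lower, and Hoxa9 and Hoxb1 higher, in both H3R8C libraries than in both H3WT libraries, while the values of the others overlapped. The same held for 21.9% (lower) and 26.8% (higher) of all genes tested, so it does not set these genes apart.

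Hes3 and Dll3, of the Notch pathway, were listed at 0 in H3WT and had 0.269 and 0.391, and 0.245 and 0.412 in H3R8C (adjusted p = 0.0508 and 0.0613), and the hedgehog receptor Ptch1 had 0.307 and 0.318 against 0.645 and 0.563. Cxcl14, a chemokine gene next to Neurog1 on chromosome 13, had 1.94 and 2.04 against 1.38 and 1.28 (adjusted p = 0.0825), Il9 1.501 and 1.341 against 0.996 and 0.634, and Il1a 1.24 and 1.01 against 0.695 and 0.766. The forkhead genes were led by Foxb1 with 2.32 and 2.15 against 3.05 and 2.53, Foxb2 with 0.153 and 1.05 against 1.67 and 1.36, and Foxf1 with 0.911 and 0.130 against 1.05 and 1.21. Among imprinted genes Peg12 had 0 against 0.226 and 0.256 (adjusted p = 0.0508), Sfmbt2 0.722 and 0.573 against 0.924 and 0.975, and Peg10 0.254 and 0 against 0.578 and 0.307. The neuronal markers Nefm and Ina, of neurofilaments, had 0.213 and 0.186 against 0.687 and 0.559, and 0.936 and 1.01 against 1.42 and 1.36, and Slc17a7, a glutamate transporter, 0.807 and 1.16 against 1.43 and 1.33.

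None of the genes of the remaining lists passed either. Among cadherins Cdh6 had 0.329 and 0.860 in H3WT and 1.45 and 1.37 in H3R8C, Cdh22 3.08 and 2.51 against 2.25 and 1.80, and Cdh23 0.937 and 0.553 against 1.12 and 0.755. Among solute carriers Slc13a5 had 0 against 0.293 and 0.464, Slc5a4a 0.203 and 0.273 against 0, and Slc30a8 0 against 0.234 and 0.415. Among keratins Krt87 had 0 against 0.267 and 0.362, Krt28 0.435 and 0.351 against 0.945 and 0.660, and Krt76 1.56 and 1.52 against 1.85 and 2.28. Vomeronasal receptors, which share sequence between copies and are uncertain, were led by Vmn1r37 (0 against 0.624 and 0.263), Vmn2r117 (0 against 0.0819 and 0.109) and Vmn1r39 (0.655 and 0.264 against 1.17 and 1.01). Among muscle genes Pax7 had 3.01 and 2.59 against 2.53 and 2.31, Myl1 0.778 and 0.724 against 0.892 and 0.999, and Myh7 0.9596 and 1.30003 against 1.37 and 1.23. The Polycomb genes Epop (0.324 and 0 against 0.345 and 0.335), Bcorl1 (0.468 and 0.0800 against 0.473 and 0.479) and Phc2 (0.319 and 0.288 against 0.293 and 0.397) and Serpini1, the single serpin tested (0.404 and 0.363 against 0.273 and 0.389) complete these lists. Epithelial markers were led by Grhl2 (1.69 and 1.53 against 2.00 and 1.89), Ovol2 (1.96 and 1.91 against 1.95 and 1.66) and Prom2 (2.26 and 1.62 against 2.37 and 1.86), and blood cell markers by Cd3g (2.19 and 2.09 against 3.14 and 2.25) and Pax5 (3.05 and 2.49 against 3.25 and 2.74).

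At the starts of most genes of the mesenchymal lineages no H3K27me3 peak was listed. Of the 16 lineage genes that the study names, Myod1, the muscle determination factor, was the one tested, with 1.18 and 1.19 in H3WT and 1.34 and 1.01 in H3R8C (adjusted p = 0.968). The other 15, among them Pparg, Cebpa, Sox9, Spp1 and Pdgfra, were listed at 0 at the start in all 4 libraries. Of 5 fat genes tested Prdm16 was lower, and the median log2 change of the 5 was -0.92. Sost, an antagonist of bone formation, was higher among 2 bone genes, with 1.16 and 1.08 against 1.95 and 1.94 (1.73-fold, log2 0.68). The median log2 change of the 2 was -0.40. The other bone gene was not called but was lower in both H3R8C libraries than in both H3WT libraries, as were 21.9% of all genes tested. Sox6 was the call among 5 cartilage genes. Of all genes tested 1.72% were called lower and 2.73% higher.

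Marker lists were read as a check of the cell type. None of 31 mesenchymal markers and none of 20 housekeeping genes had signal in both libraries of either genotype, and the same held for 67 histone genes and 33 H3K4 and H3K9 methylation enzymes. Signal was present at 11 of 20 neuronal, 6 of 20 epithelial, 6 of 22 blood and 3 of 15 endothelial markers. Kdr, an endothelial receptor, was higher (0 against 0.350 and 0.317), and the other markers were not called. H3K27me3 at a start is no measure of expression.

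In windows of 1 Mb, 52 of 1646 with signal in every library were lower (3.16%) and 27 higher (1.64%). The strongest change was over the part of Ptprd on chromosome 4 from 76 to 77 Mb, where scaled window signal was 0.0355 and 0.0414 in H3WT and 4.17 and 3.54 in H3R8C (log2 3.83 ± 0.17 SE, limma adjusted p = 0.000704). In it 14 of 16 consensus regions were gained. The window with the start of Sox6 (chromosome 7, 116 to 117 Mb) had 0.156 and 0.330 against 2.65 and 3.42 (log2 2.75, adjusted p = 0.00741). Windows without a gene rose on chromosome 14 (114 to 115 Mb, log2 1.94) and chromosome 11 (38 to 39 Mb, log2 1.93). On chromosome 15 the window from 41 to 42 Mb, with Oxr1, an oxidation resistance gene, and Abra, had 1.54 and 0.889 against 0.0783 and 0.0485 (log2 -2.19, adjusted p = 0.015). All 7 consensus regions near the shared region chr15:41119051-41136400, with 3.67 and 2.74 against 0.560 and 0.335, were lower, 6 of them lost. The windows with Pabpc6 (chromosome 17, 9 to 10 Mb, log2 -1.81), Tox3 and Chd9 (chromosome 8, 90 to 91 Mb, log2 -1.67) and Sema6a (chromosome 18, 47 to 48 Mb, log2 -1.61) followed. In the last one the region chr18:47528601-47543950 was lost, with 2.68 and 2.31 in H3WT. Without the first or the second H3R8C library 0 and 1 windows were lower and 1 and 3 higher, and without the first or the second H3WT library 175 and 114 were lower and 170 and 93 higher. The count of 0 had 120 lower windows at an unadjusted p under 0.05.

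Chromosome 13 was the only one of 21 chromosomes whose share of all peak signal passed the threshold (4.76% of chromosomes). Its share was 3.44% and 3.71% in H3WT and 2.40% and 2.55% in H3R8C (log2 -0.53 ± 0.073 SE, limma adjusted p = 0.0367), while the other 18 autosomes moved by -0.10 to 0.17. The decrease ran along the chromosome. Over regions with a peak in every library, all 13 bins of 10 Mb had a median below 0. These medians ran from -0.02 to -1.04, the last over 2 regions, with -0.52 over 8 regions the next lowest. Of 305 regions on the chromosome with a peak in every library 78.7% were below 0, against 47.2% of all such regions. Of the 1370 lost regions 110 lay on chromosome 13 (8.03%) and of the 1471 gained regions 9 (0.612%), against 3.27% of the consensus. Likewise 10 of the 87 lower shared regions lay there and none of the 53 higher ones, and 7 of 70 windows were lower and 0 higher. Without chromosome 13 the counts over shared regions were 71 lower and 45 higher.

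The share of the same chromosome was also read in other lists, without a test. Anti-HA peaks on it held 2.39% and 1.84% of signal in H3WT and 0.936% and 1.14% in H3R8C. In the H3K27me3 lists of 2 further arginine mutants of the series its share was 2.48% and 2.08% for H3R2C, and 4.47% and 4.59% for H3R26C. Chromosome 13 was not alone in this: chromosome 15 held 7.10% and 7.37% in H3R2C, against 4.49% and 4.97% in H3WT. The number of copies of chromosome 13 was not measured here, and its part in the result was not tested. The call was lost without either H3R8C library (0 chromosomes, 1 at an unadjusted p under 0.05), and 2 chromosomes passed without the first H3WT library.

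**Figure D5:**
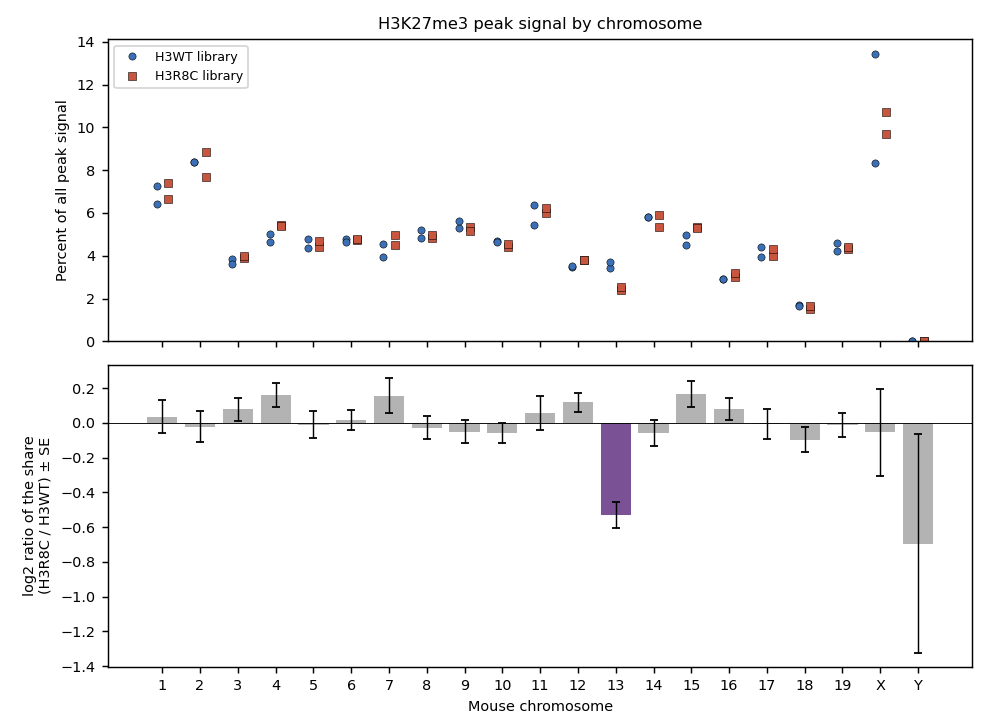
Top, percent of all peak signal on each mouse chromosome in each H3WT (blue circles) and H3R8C library (red squares). Bottom, log2 ratio of the mean shares with its SE, chromosome 13 in purple. Chromosome 13 falls by 0.53 on the log2 scale with libraries that do not overlap, while chromosome X varies from 8.32% to 13.4% between the H3WT libraries alone.

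H3R8C was also compared with H3R2C and H3R26C, the same transgene with cysteine at arginine 2 or 26, in 1 limma fit of 8 libraries over the same 16557 regions. H3R8C was below H3R2C at 1222 regions (7.38%) and above it at 3048 (18.4%), and below H3R26C at 667 (4.03%) and above it at 1768 (10.7%). Of the 87 shared regions lower than in H3WT, 28 were below H3R2C and 11 above, 39 were below H3R26C and 6 above, 13 were below both and 0 above both. Of the 53 higher ones, 37 were above H3R2C and 2 below, 13 were above H3R26C and 1 below, 9 were above both and 1 below both. Over all 16557 regions 176 were below both and 961 above both. The regions were taken from the H3WT and H3R8C lists alone. They hold the 1471 regions gained in H3R8C and no region called only in H3R2C or H3R26C. That choice favours regions above the other mutants, so the counts in the 2 directions cannot be compared. The 87 and the 53 were likewise chosen with the H3R8C libraries that enter these contrasts. Without the first H3R8C library the regions that differ from H3R2C numbered 2656 in place of 4270.

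Single loci, named through the same H3R8C libraries, differed in how the mutants ranked. At Tmem273 the values scaled over the 8 libraries were 5.23 and 5.11 in H3R2C and 3.34 and 3.003 in H3R26C, and H3R8C was below both (adjusted p = 0.00384 and 0.0146). At Dmrt2 they were 1.86 and 2.5 in H3R2C, from which H3R8C was not told apart (adjusted p = 0.13), and 4.30 and 5.35 in H3R26C (adjusted p = 0.00525). The region beside the Hoxc cluster had 0 and 0 in H3R2C and 0.671 and 0.649 in H3R26C (adjusted p = 0.00026 and 0.000902). The Ptprd region chr4:76774751-76805350 was listed at 0 in all 4 libraries of the other mutants. At the largest Sox6 region H3R2C was listed at 0 and H3R26C had 1.70 and 3.01.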

How the data were processed

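Anti-H3K27me3 CUT&RUN libraries of H3WT and H3R8C cells were analysed, 3 labelled replicates of each. As its methods state, the authors aligned reads to mm10 with Rsubread and called peaks per library with SEACR 1.3 (stringent, norm, threshold 0.01); the submitters' processing notes also list ChIPseeker 1.28.3. The deposited peak lists give coordinates, total signal and maximum signal, and no read counts. The read totals that the study states per library were not used, and limma on log2 values took the place of the DESeq2 test that the authors ran on counts. SEACR lists only peaks above a threshold set within each library, and total signal grows with both length and height of a peak.

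Identical lists were counted once. Overlapping peaks were merged, and total signal was summed per region and scaled by its median over regions called in every list. Gene starts (GENCODE, GRCm38, protein-coding, 2.5 kb either side), 1 Mb windows and chromosome shares were treated likewise. Tests were limma 3.58.1 (lmFit and eBayes with trend, without trend for chromosomes, two-sided, pseudocount 0.25, Benjamini-Hochberg adjusted p under 0.05) in R 4.3.3, tested on simulated data, with pandas 2.3.3 and numpy 2.4.6 in Python 3.11.15.

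Named by rule were the 8 most lowered and 8 most raised regions with a peak in every list, the 6 lower and 6 higher with the greatest difference in signal, the 5 longest lost and gained, the 12 lower and 12 higher genes and 4 lower and 4 higher windows with the greatest log2 change, up to 4 called genes per gene list (the 3 with the lowest unadjusted p where none was called), and the lineage genes named in the study; others are marked as singled out after their values were seen. A few genes that the rules name are not reported here. The comparison, the gene lists and the tests were chosen with earlier results of these data known. H3R17C was not used here because 1 of its lists is named for another mark.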

Additional observations from a re-analysis of the deposited data

Results flagged for a closer look

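At 18 of the named regions H3R8C differed from H3WT and from both H3R2C and H3R26C in the fit of 8 libraries. H3WT means do not enter the contrasts between mutants, but the H3WT libraries share in the spread, the scaling and the choice of regions. The larger of the 2 limma adjusted p-values of those contrasts is given for each region. These regions were named for their difference from H3WT in the same H3R8C libraries that enter the contrasts with H3R2C and H3R26C. Those contrasts are therefore no independent support. The lost and gained regions among them, which include those at Pax1, Sox6 and Ptprd, had also passed the filter through 1 genotype only. All p-values given here are a description.

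H3R8C was lower than both other mutants at Tmem273 (0.0146), in the Grik4 body (0.00508), in Dscaml1 at chr9:45615401-45627600 (0.0339), chr9:45526701-45551600 (0.00177), chr9:45507451-45523700 (0.0013) and chr9:45591301-45606100 (0.00583), 311 kb from Oxr1 (0.00366) and at Pax1 (0.00187). At Pax1 the values scaled over 8 libraries were 0.683 and 1.05 in H3R2C and 1.24 and 1.62 in H3R26C, with 0 in both H3R8C libraries.

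H3R8C was higher than both at Pcdh10 (0.00783), in the chromosome 1 interval at chr1:56205201-56230700 (0.00812), 110 kb from P2ry1 (0.0159), beside the Hoxc cluster (0.000902), in Ptprd at chr4:76774751-76805350 (0.00177) and chr4:76704051-76728200 (0.00227), at chr14:114024501-114055500 (0.00177), and in Sox6 at chr7:115875901-115934800 (0.0118), chr7:115947951-115972800 (0.0483) and chr7:116003851-116022600 (0.0402). At Pcdh10 the values were 0 and 0 in H3R2C and 0.167 and 0.253 in H3R26C.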

How the results depend on the processing

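Peak lists carry no depth, so weak regions near the lowest listed signal limit these results, as do 2 libraries per genotype. Values are given as lower/higher. Consensus regions (1493/1546) came to 0/0 over all merged regions (2253/2316 at an unadjusted p under 0.05), 87/53 over regions called in every list, 0/0 at an adjusted p under 0.001 (2173/2271 unadjusted), 778/850 with the upper 50% of peaks, 2690/2936 with all 3 labelled replicates, where the identical lists lower the spread by construction, 646/772 in 1 fit of 8 libraries, and 661 to 4123 and 999 to 3662 with 1 library left out. Lost and gained regions (1370 and 1471) came to 711 and 777 with the upper 50% of peaks, 5469 and 4851 with all 3 labelled replicates, and from 2005 to 4047 and 2371 to 3642 with 1 library left out. Genes (49/78) came to 95/158 with pseudocount 0.05 and 96/184 with the maximum signal, 298/377 with all 3 labelled replicates, and 0/0 with pseudocount 1 (227/295 unadjusted), at an adjusted p under 0.001 (221/288), with equal numbers of top peaks (211/278), 1 kb around the start (159/223), only genes with signal in every list (133/127) and signal as deposited (149/326); 125 were higher with the upper 50% of peaks, and 8 to 240 and 23 to 386 with 1 library left out. Windows (52/27) came to 318/328 with all 3 labelled replicates, 52 higher with windows of 500 kb, 67 higher with signal in at least 1 list, and 0 to 175 and 1 to 170 with 1 library left out. Chromosomes (1) came to 0 by covered length (2 at an unadjusted p under 0.05) and 0 to 2 with 1 library left out. Regions that differ between H3R8C and H3R2C (4270) came to 2829 with the maximum signal, 1533 over regions called in every list and 2656 to 3397 with 1 H3R8C library left out, and those between H3R8C and H3R26C (2435) to 861 over regions called in every list. Covered length (1.62 Mb more in H3R8C) reversed to -1.15 with all 3 labelled replicates and ranged from -4.18 to 7.41 with 1 library left out, reversing to -0.889 without the second H3WT library. The log2 change of chr1:55933901-56030300 reversed to -0.0766 with the maximum signal, and that of Myod1, which did not pass, to 0.0332 with all 3 labelled replicates and 0.0828 with signal as deposited, and ranged from -0.181 to 0.139 with 1 library left out, reversing without the second H3R8C library. Among genes given without a call, log2 changes reversed to -0.0686 (Hoxb13), 0.0407 (Pax7), -0.175 (Myh7), 0.112 (Cdh22), -0.0287 (Cdh23), 0.0284 (Serpini1) and -0.0183 (Pax5) with the maximum signal, to 0.0565 (Hoxd11 and Hoxd12) and 0.0243 (Ovol2) with signal as deposited, to -0.0019 (Hoxb2) with all 3 labelled replicates, and to -0.0037 (Hoxb13) and -0.0065 (Hoxb2) without chromosome 13. With 1 library left out they ranged from -0.148 to 0.307 (Hoxa13), -0.174 to 0.190 (Hoxb13), -0.148 to 0.150 (Hoxb2), -0.0906 to 0.161 (Hoxc10, Hoxc11 and Hoxc12), -0.0214 to 0.566 (Cdh23), -0.280 to 0.0175 (Serpini1), -0.185 to 0.0072 (Ovol2), -0.103 to 0.335 (Prom2), -0.0372 to 0.246 (Pax5) and -0.0280 to 0.236 (Phc2). The cause of these changes was not tested. The alternatives for regions with a peak in every list (87/53) and those without chromosome 13 or on autosomes only were chosen after seeing the data: 0/0 with the maximum signal (584/412 unadjusted), and 4 to 451 and 0 to 497 with 1 library left out.

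Replicate numbers were also used as a block. Libraries with the same number had deviations from the genotype means that correlated at r = 0.140 over 16557 regions and 0.196 over 10167, from 2 pairs, which does not show that the numbers pair the samples. With the replicate block 0 genes passed (242/336 unadjusted), 0 chromosomes (1 unadjusted), 260/240 windows and 324/280 regions with a peak in every list, and other counts stayed within 1.5 times.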
